A study of Mus musculus with 12 samples.

Results

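Ccl17, Ccl22, Ccl20 and Ccl1 are ligands, and Ccr4, Ccr6 and Ccr8 are the receptors they use, of 3 chemokine axes that guide T helper 2 cells, regulatory T cells and dendritic cells. All probe sets whose array annotation gives 1 symbol equal to one of these names were taken. This gave 7 probe sets, 1 for each of the 7 genes, of 45101 probe sets and 18194 genes with 1 symbol on the array. Whole lung RNA of A/J mice, 8 to 10 weeks old in the labels and male in the methods, was hybridized to a whole-genome mouse expression array of Affymetrix. The lungs were taken on the fourth day after particle exposure. The 4 groups of 3 arrays were named by 2 treatments in sequence, and the methods give 3 animals a group.

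In the PBS/PBS group, phosphate-buffered saline replaced both treatments. The OVA/PBS group was sensitized with ovalbumin (OVA, 0.4 mg/kg into the peritoneum on day 0) and challenged with it in the trachea (30 mg/kg on day 14), a common mouse model of allergic asthma. The PBS/PM group aspirated 50 µl of ambient Baltimore particulate matter (PM, 10 mg/ml in saline), given as 1 bolus. The OVA/PM group received both. Levels are log2 intensities, so a difference of 1 is a doubling. They say nothing of protein, and in whole lung fewer cells of a type and less RNA per cell cannot be told apart.

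CCL17 and CCL22 are the ligands of CCR4, the receptor of T helper 2 and regulatory T cells, and are made chiefly by dendritic cells and macrophages, with STAT6 and NF-kB as known inducers. CCL20 is the chemokine ligand of CCR6, made by airway epithelium, and draws immature dendritic cells, B cells and T helper 17 cells. CCL1 binds CCR8, which marks T helper 2 and regulatory T cells, and in mice CCL8 binds it too.

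Before the results, 3 facts of the arrays bear on the groups. With the names OVA/PBS and PBS/PM exchanged, 28 of 28 tabulated fold changes came out of these files at the printed digit, and with the names as labelled 4 did. The labels were kept here, and every direction given for the arrays labelled OVA/PBS or PBS/PM rests on them. OVA/PM against PBS/PBS and the interaction do not. With those names exchanged, a pattern shared by both groups labelled with OVA would be one shared by both groups given particles. Replicate 3 of OVA/PM stood apart on the hybridization control probe set AFFX-BioC-5_at, at 6.82 against at most 2.77 on the other 11 arrays. The mean of 16 striated muscle genes was 6.48, 9.25 and 8.57 in OVA/PM replicates 1, 2 and 3 and at least 9.74 on the other 9 arrays. The lung label was borne out by its markers: all 10 measured, among them Sftpc and Ager, reached the filter level, and their mean lay between 13.3 and 13.6 on every array. The filter level, 4.93, was the median of all values.

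Ccl22 and Ccl17 are near neighbours on mouse chromosome 8, in the same orientation, with Cx3cl1, a pseudogene and a long noncoding RNA gene between them. Their promoters are shown because these 2 ligands were the members with calls against PBS/PBS, while their levels differed in pattern. The sequences are from RefSeq (GRCm38.p6, plus strand), from 250 bases before to 50 bases after the annotated start, at chr8:94810203-94810502 for Ccl17 and chr8:94745434-94745733 for Ccl22. Capitals mark matches to TTC and GAA with 4 bases between them, the spacing that STAT6 prefers, and to TTCNNNGAA, the spacing of other STAT proteins.
Ccl17: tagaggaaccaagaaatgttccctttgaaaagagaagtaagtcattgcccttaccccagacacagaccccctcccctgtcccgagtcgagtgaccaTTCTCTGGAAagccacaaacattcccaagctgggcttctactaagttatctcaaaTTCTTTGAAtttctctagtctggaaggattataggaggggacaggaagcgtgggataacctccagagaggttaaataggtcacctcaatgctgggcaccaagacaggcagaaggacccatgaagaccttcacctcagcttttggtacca
Ccl22: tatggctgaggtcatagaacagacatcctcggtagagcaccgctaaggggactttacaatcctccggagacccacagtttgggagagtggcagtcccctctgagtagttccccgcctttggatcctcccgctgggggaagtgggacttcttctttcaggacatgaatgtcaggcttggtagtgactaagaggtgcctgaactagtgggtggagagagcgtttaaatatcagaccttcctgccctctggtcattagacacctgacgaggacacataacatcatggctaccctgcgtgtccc
The Ccl17 promoter held TTCTCTGGAA with its first base at -154 and TTCTTTGAA at -99, counted from the start. The Ccl22 promoter held neither motif and no match to the NF-kB motif in this window. Over all 32851 promoters of the table, read on both strands, 6.95% held the STAT6 spacing, 8.3% held TTCNNNGAA and 4.51% held the NF-kB motif. Of the 8 promoters of the 7 genes (Ccr6 has a pair), 1 held the STAT6 spacing, that of Ccl17. TTCNNNGAA lay in that promoter and in the upstream Ccr6 promoter, at -157 and -120. The NF-kB motif lay in the Ccl20 promoter at -80 and in the downstream Ccr6 promoter in a pair of overlapping places. A letter match is a description, not a binding site.

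Ccl22 transcript was high on every array of both groups labelled with OVA and low on every array without it. In replicates 1, 2 and 3, its log2 level was 5.62, 5.89 and 4.92 in PBS/PBS and 7.17, 7.21 and 7.12 in OVA/PM. In OVA/PBS it was 7.15, 7.45 and 6.73, and in PBS/PM 5.57, 4.79 and 5.47. The 6 arrays labelled with OVA lay above the other 6 without overlap, and the OVA/PM arrays were almost equal to each other (SD 0.04, against 0.37 to 0.50 in the other groups). Group means ± SD (n = 3) were 5.48 ± 0.50 in PBS/PBS, 7.11 ± 0.37 in OVA/PBS, 5.27 ± 0.42 in PBS/PM and 7.17 ± 0.04 in OVA/PM.

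Against PBS/PBS, Ccl22 rose by 1.69 in OVA/PM on the log2 scale (SE 0.24, 95% interval 1.10 to 2.27, 3.22-fold, limma adjusted p = 0.00667). Of the 3 members tested there 2 were called, where 21.7% of all probe sets were called in either direction. Nothing is read from that count, since Ccl22 (4.92 in PBS/PBS replicate 3) and Ccl17 passed the filter only through OVA/PM. In the arrays labelled OVA/PBS it rose by 1.63 (SE 0.30, interval 0.91 to 2.36, 3.10-fold, limma adjusted p = 0.0222), as 1 of 2 members tested where 19.2% of all probe sets were called, and here it passed the filter only through OVA/PBS. This call was lost without PBS/PBS replicate 1 (adjusted p = 0.0568) or 2 (0.0505), and without OVA/PBS replicate 1 (0.0711) or 3 (0.0625). The fit that used no filter did not call it either (adjusted p = 0.0543). The call in OVA/PM held without any one of its 6 arrays, with a highest limma adjusted p of 0.0288.

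In the arrays labelled PBS/PM, Ccl22 did not pass the filter against PBS/PBS. In the fit without a filter its log2 difference was -0.20 (SE 0.34, interval -1.06 to 0.66, limma adjusted p = 0.871). Only Ccr6 passed the filter there, and 0 members were called by limma or by SAM, where limma called 0.0719% of all probe sets. An unadjusted p under 0.05 was found for 0 members and for 1810 of the 22246 probe sets tested. Between OVA/PM and OVA/PBS the Ccl22 difference was 0.06 (SE 0.19, interval -0.39 to 0.50, limma adjusted p = 0.936). Against PBS/PM it rose by 1.89 in OVA/PM (SE 0.21, 3.71-fold, limma adjusted p = 0.00376) and by 1.83 in OVA/PBS (SE 0.27, 3.57-fold, adjusted p = 0.0356).

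Ccl17 was highest in OVA/PM and spread widely in OVA/PBS. Its log2 level was 4.50, 4.53 and 4.08 in PBS/PBS and 6.46, 6.78 and 6.13 in OVA/PM (replicates 1, 2 and 3). In OVA/PBS it was 5.92, 4.16 and 5.66, and in PBS/PM 4.40, 4.72 and 4.73. All 3 OVA/PM arrays lay above the other 9, and OVA/PBS replicate 2 lay within the range of PBS/PBS while replicates 1 and 3 lay above it. In order, the group means ± SD (n = 3) were 6.46 ± 0.32 in OVA/PM, 5.25 ± 0.95 in OVA/PBS, 4.62 ± 0.19 in PBS/PM and 4.37 ± 0.25 in PBS/PBS. Neighbours from OVA/PBS downward did not differ beyond their spread.

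Against PBS/PBS, Ccl17 rose by 2.09 in OVA/PM (SE 0.20, interval 1.60 to 2.58, limma adjusted p = 0.00175). Since the PBS/PBS arrays were all under the filter level, the gene passed the filter only through OVA/PM, and the fold is given against that level, as at least 2.88-fold higher. The call held without any one of the 6 arrays, with a highest limma adjusted p of 0.0115. Against PBS/PM it rose by 1.84 (SE 0.19, again at least 2.88-fold, limma adjusted p = 0.00308), where all 3 members tested and 12.9% of all probe sets were called. Ccl17 and Ccl22 passed that filter only through OVA/PM (Ccl22 was at 4.79 in PBS/PM replicate 2), so nothing is read from that count either.

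Ccl17 passed the filter in neither single exposure against PBS/PBS. Without the filter its log2 differences were 0.88 in OVA/PBS (SE 0.50, interval -0.39 to 2.16, limma adjusted p = 0.394) and 0.25 in PBS/PM (SE 0.16, interval -0.17 to 0.66, adjusted p = 0.871). The OVA/PBS value rested on replicate 2: without that array Ccl17 passed the filter, and its difference from PBS/PBS was 1.43 (SE 0.18, limma adjusted p = 0.0103). Between OVA/PM and OVA/PBS the difference was 1.21 (SE 0.46, interval 0.10 to 2.32, 2.31-fold), and the gene passed the filter there only through OVA/PM. The arrays did not overlap, but limma's p of 0.0373 gave an adjusted p of 0.556, and without OVA/PBS replicate 2 the difference was 0.66 (adjusted p = 0.582). There 0 of the 3 members tested were called by limma and 0 by SAM, where limma called 0.13% of all probe sets. An unadjusted p under 0.05 was found for 1 of the 3 members and for 1965 of the 22379 probe sets tested.

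**Figure D1:**
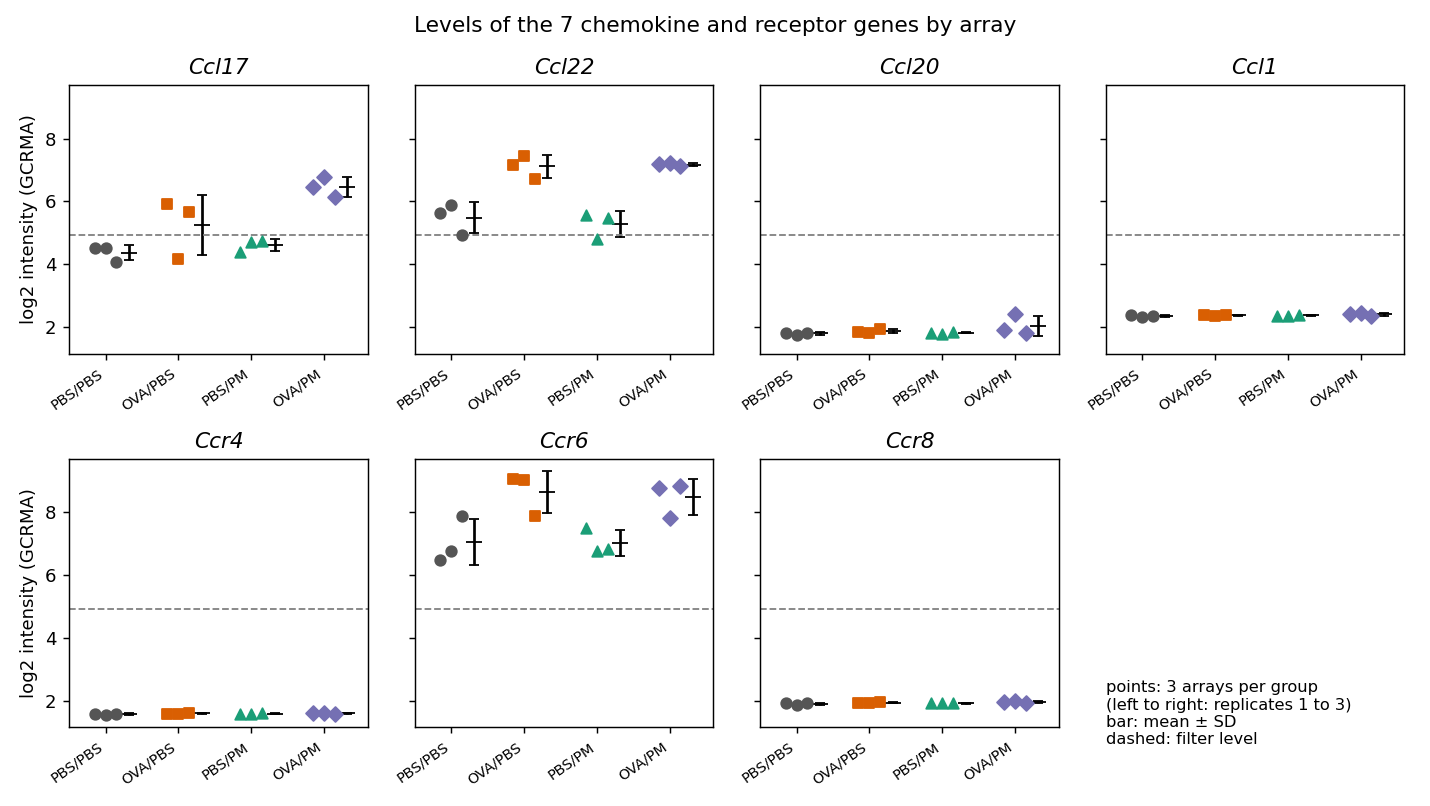
Log2 GCRMA intensity (vertical axis) of the 7 genes on each of the 12 arrays by group (horizontal axis); points are arrays in the order of replicates 1 to 3, bars are the mean ± SD, and the dashed line is the filter level, 4.93. Ccl22 lies above 6.7 on all 6 arrays labelled with OVA, Ccl17 is highest on the 3 OVA/PM arrays, and Ccl20, Ccl1, Ccr4 and Ccr8 lie under 2.5 throughout.

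Ccl20 and Ccl1 were at the bottom of the array's scale. Ccl20 lay between 1.75 and 1.93 on 11 of the 12 arrays, and OVA/PM replicate 2 reached 2.40. Ccl1 lay between 2.31 and 2.44. No array of either came near the filter level, and no group stood apart from the others. Without the filter, the log2 difference of Ccl20 between OVA/PM and PBS/PBS was 0.25 (SE 0.16, interval -0.16 to 0.66, limma adjusted p = 0.427), and that of Ccl1 was 0.06 (SE 0.04, interval -0.04 to 0.16, adjusted p = 0.45). Intensities this low carry little of the gene's own signal, so any change in these 2 transcripts was not detectable on these arrays.

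Of the receptors, Ccr4 and Ccr8 were likewise not measurable. Ccr4 lay between 1.53 and 1.61 and Ccr8 between 1.87 and 1.97 on the 12 arrays. Their differences between OVA/PM and PBS/PBS, in the fit without a filter, were 0.03 for Ccr4 (SE 0.03, interval -0.06 to 0.12, limma adjusted p = 0.565) and 0.04 for Ccr8 (SE 0.04, interval -0.05 to 0.13, adjusted p = 0.495). The ligand transcripts of the CCR4 axis were therefore measured here without the receptor's.

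Ccr6, the receptor of CCL20, was above the filter level on all 12 arrays. Its log2 level was 6.49, 6.78 and 7.88 in PBS/PBS and 8.78, 7.82 and 8.82 in OVA/PM (replicates 1, 2 and 3). It was 9.06, 9.01 and 7.87 in OVA/PBS and 7.50, 6.75 and 6.84 in PBS/PM. In each group labelled with OVA 1 array was about as high as PBS/PBS replicate 3, so both overlapped with PBS/PBS, but neither overlapped with PBS/PM. Group means ± SD (n = 3) were 7.05 ± 0.73 in PBS/PBS, 8.65 ± 0.67 in OVA/PBS, 7.03 ± 0.41 in PBS/PM and 8.48 ± 0.57 in OVA/PM.

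Against PBS/PBS, the log2 difference of Ccr6 was 1.43 in OVA/PM (SE 0.43, interval 0.39 to 2.46, 2.69-fold) with a limma adjusted p of 0.06, and 1.60 in OVA/PBS (SE 0.47, interval 0.46 to 2.74) with an adjusted p of 0.0603. Neither was called. Without PBS/PBS replicate 3 both were, with limma differences of 1.84 (adjusted p = 0.021) and 2.02 (adjusted p = 0.0431), and without OVA/PM replicate 2 the former was (1.76, adjusted p = 0.0483). Both were also called by 1 fit of the 4 groups (adjusted p = 0.0341 and 0.0248) and by SAM, the test of the methods (q = 0.0137 and 0.00963). These called more of the array: SAM 42.8% and 49.1% of all probe sets tested in the 2 contrasts, and the 4-group fit 28.2% and 25.2%. Other refits moved Ccr6 further from a call. Without PBS/PBS replicate 2 its limma adjusted p was 0.171 in OVA/PM and 0.161 in OVA/PBS, and without a filter 0.147 and 0.142.

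In the arrays labelled PBS/PM the difference of Ccr6 from PBS/PBS was -0.02 (SE 0.39, interval -0.97 to 0.94, limma adjusted p = 0.993). OVA/PM exceeded PBS/PM by 1.45 (SE 0.33, 2.72-fold, limma adjusted p = 0.0346), a call lost without PBS/PM replicate 2 (adjusted p = 0.107) or 3 (0.102), without OVA/PM replicate 1 (0.102) or 3 (0.1), and without a filter (0.103). OVA/PM and OVA/PBS differed by -0.17 (SE 0.41, interval -1.15 to 0.81, adjusted p = 0.908). Between OVA/PBS and PBS/PM the difference of 1.62 had a limma adjusted p of 0.0582, and of the 2 members tested there Ccl22, which passed the filter only through OVA/PBS, was called, where 5.2% of all probe sets were. The Ccl22 call was lost without any one array but OVA/PBS replicate 2, with a highest adjusted p of 0.148 (without OVA/PBS replicate 3).

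The interaction asks whether the log2 difference of the joint exposure exceeded the sum of the single log2 differences, that is, the product of their folds. A sum on the linear scale was not tested. It was 0.26 for Ccl22 (SE 0.39, interval -0.61 to 1.13), 0.96 for Ccl17 (SE 0.54, interval -0.24 to 2.16) and -0.16 for Ccr6 (SE 0.62, interval -1.54 to 1.23) on the log2 scale. The limma adjusted p was 0.962, 0.856 and 0.99, and 0.0264% of all probe sets were called. Thus 0 of 3 members tested were called, and SAM was not run for this contrast. Of the 3 members 0 had an unadjusted p under 0.05, as had 1412 of the 22688 probe sets tested. Each of the 3 intervals reaches beyond 1 on the higher side, so an excess of a doubling lies within each interval. Ccl17 passed the filter of this contrast only through OVA/PM. Its PBS/PBS and PBS/PM arrays were all under the filter level, so its interaction value rests in part on levels under it.

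**Figure D2:**
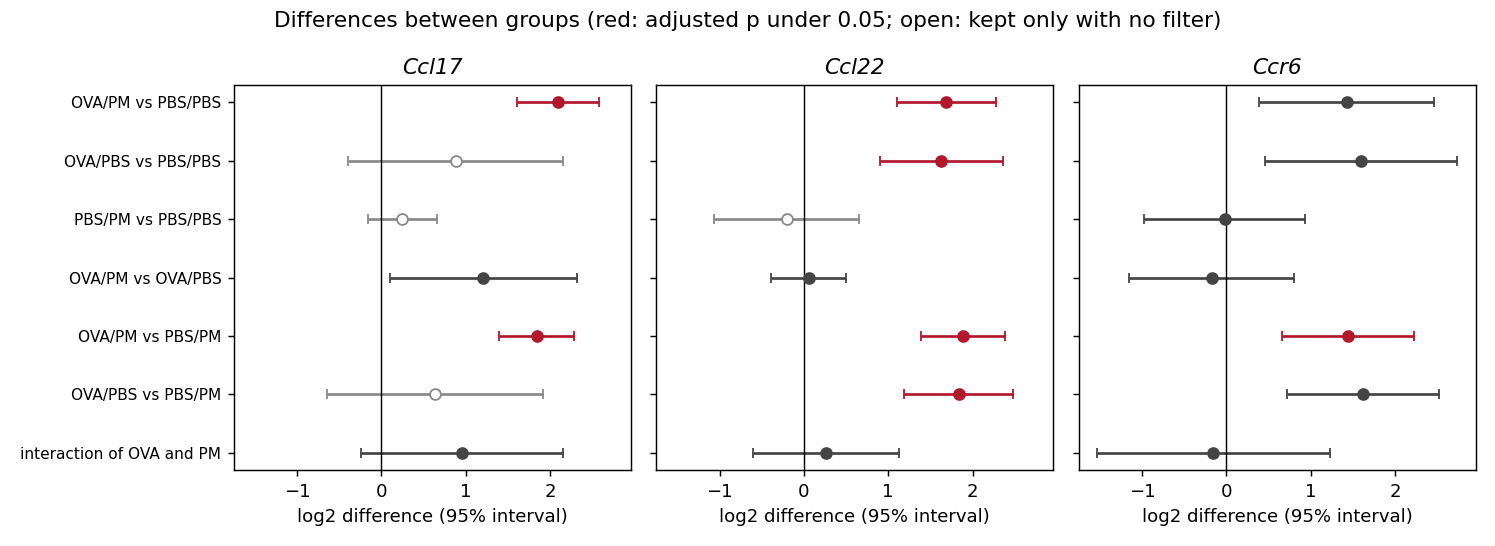
Log2 difference (horizontal axis) of Ccl17, Ccl22 and Ccr6 in each of the 7 contrasts (vertical axis), with its 95% interval from limma; red points had an adjusted p under 0.05, open points come from the fit without a filter. The OVA/PM difference from PBS/PBS is 2.09 for Ccl17, 1.69 for Ccl22 and 1.43 for Ccr6, and the differences of PBS/PM from PBS/PBS include 0 for all 3.

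The neighbouring genes of these axes moved in both directions. Of 8 measured, 3 defensin genes were under the filter level on all arrays, and of the 4 tested in OVA/PM against PBS/PBS 2 rose and 2 fell (median 0.32, or -0.10 with Ackr4 set at its bound, against -0.03 over all probe sets tested). Ccl8, the other mouse ligand of CCR8, changed most of the 3 whose level was measured on both sides. Its log2 level was 6.00, 6.49 and 6.38 in PBS/PBS, 11.08, 9.98 and 11.63 in OVA/PBS, 10.37, 9.63 and 12.00 in PBS/PM and 12.36, 12.62 and 12.53 in OVA/PM. All 9 exposed arrays lay above all PBS/PBS arrays, including those labelled PBS/PM, on which Ccl22 was no higher than 5.57 and Ccl17 no higher than 4.73. Ccl8 rose by 6.21 in OVA/PM (SE 0.15, 74.2-fold, limma adjusted p = 1.21e-05) and was 24.3-fold higher in OVA/PBS (SE 0.42 on the log2 scale, adjusted p = 0.00691). In PBS/PM its difference of 4.37 (SE 0.58) had a limma adjusted p of 0.114, and of 0.00806 in 1 fit of the 4 groups.

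Ackr2, a scavenging receptor that removes inflammatory CC chemokines such as CCL17 and CCL22, was lower in both groups labelled with OVA. Its log2 level was 11.23, 11.12 and 10.67 in PBS/PBS, 10.09, 10.26 and 10.55 in OVA/PM and 10.17, 10.50 and 10.21 in OVA/PBS, without overlap with PBS/PBS. PBS/PM lay between 10.65 and 11.19, over the same range as the controls. It fell by 0.70 in OVA/PM (SE 0.19, limma adjusted p = 0.0423) and by 0.71 in OVA/PBS (SE 0.18, adjusted p = 0.0411). Each call was lost without PBS/PBS replicate 1 or 2, and further without OVA/PM replicate 1 or 2 or without OVA/PBS replicate 1 or 3, with a highest adjusted p of 0.135 and 0.132, and in the fit without a filter (0.0937 and 0.0886). Ackr4, the scavenging receptor of CCL19 and CCL21, rose by 1.22 in OVA/PM from a level below the filter (SE 0.24, at least 1.29-fold, limma adjusted p = 0.0168), and lost its call without PBS/PBS replicate 2 (0.0647), OVA/PM replicate 1 (0.0603) or 3 (0.0539). Dpp4, the protease that trims CCL22, fell by 0.57 in OVA/PM (adjusted p = 0.0273).

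Signals upstream of these chemokines, and genes induced by such signals, were measured in part. Of 18 type 2 and alarmin genes, 7 were under the filter level on all arrays, among them the cytokines Il4, Il5, Il13 and Il25. In OVA/PM against PBS/PBS 5 of 11 tested rose and 0 fell (median 0.56): Il7r, part of the TSLP receptor, by 2.52, Irf4, a factor of type 2 dendritic cells, by 2.05, Il33, an epithelial alarmin, by 1.74, and the TSLP receptor chain Crlf2 by 0.68 were the largest 4 (limma adjusted p 0.00259, 0.0062, 0.00116 and 0.00868). Among those not called in OVA/PM were Tslp itself (-0.49, limma adjusted p = 0.369) and Stat6 (0.10, adjusted p = 0.501). Il4ra (0.22, adjusted p = 0.463) and Gata3 (0.56, adjusted p = 0.158) were not called either. In OVA/PBS 3 of 11 rose, Il33 among them (limma adjusted p = 0.0388), and Tslp was at -0.42 (adjusted p = 0.466). In PBS/PM 0 of 11 passed. The NF-kB and IL-17 list held induced genes and also pathway components such as Rela and Il17ra. Of its 17 genes measured, 7 of 13 tested rose in OVA/PM (median 1.05). Among them were the neutrophil chemokines Cxcl5 (at least 42.0-fold, its PBS/PBS arrays all being under the filter level) and Cxcl1 (3.08). The iron-binding protein gene Lcn2 (2.98) and the NF-kB inhibitor Tnfaip3 (1.32) rose too. In OVA/PBS 1 of 12 rose, with a median of 0.91, and in PBS/PM 0 of 11, with a median of 0.09. Of all probe sets, 10.9% were called higher in OVA/PM, 8.68% in OVA/PBS and 0.0539% in PBS/PM, so a count of 0 in PBS/PM is near the share there. The 3 contrasts share the PBS/PBS arrays, and the difference between the counts was not tested.

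Many genes listed for cells that make or follow these chemokines were higher in the groups labelled with OVA. Of the dendritic cell list, 10 of 15 tested rose in OVA/PM (median 1.55), with Itgax, which encodes CD11c, at 2.49, the lectin Clec10a at 2.11, the cross-presenting cell factor Batf3 at 2.05 and the class II transactivator Ciita at 1.78. Its mean level ran from 6.44 to 6.91 in PBS/PBS, from 7.69 to 7.80 in OVA/PM, from 7.32 to 7.65 in OVA/PBS and from 6.93 to 7.15 in PBS/PM. Over its 20 genes measured, Xcr1 and Cd80 were under the filter level throughout. In OVA/PBS 9 of 15 rose and 1 fell, against 8.68% and 10.5% of all probe sets, and the share called higher in OVA/PM was 10.9%. In PBS/PM 0 of 15 passed, where 0.0719% of all probe sets were called. The gene that fell in OVA/PBS was Zbtb46, a factor of classical dendritic cells (-0.63, limma adjusted p = 0.0318), and in OVA/PM its difference was -0.28 (adjusted p = 0.169). Cd209a was not called in OVA/PM (0.05, limma adjusted p = 0.87) or OVA/PBS (-1.07, adjusted p = 0.0719). Ccr7 was not called there either (0.19, adjusted p = 0.725, and 0.49, adjusted p = 0.344), and Flt3 did not pass the filter. The list thus did not move as a whole.

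Of the T cell list, 7 of 10 tested rose in OVA/PM and 7 of 10 in OVA/PBS. In OVA/PM the rise was 3.43 for Icos, 2.22 for Cd5, 1.51 for Cd28 and at least 1.36-fold for Cd4, which lay under the filter level in PBS/PBS. For this and the next 2 lists, the shares of all probe sets called higher were 10.9% in OVA/PM, 8.68% in OVA/PBS and 0.0539% in PBS/PM. All 4 regulatory T cell genes tested rose in both, in OVA/PM by 3.09 for Ctla4, 1.35 for Tnfrsf18, 0.95 for Ikzf2 and, again from under the filter level, at least 1.85-fold for Tnfrsf4. The defining gene of that list, Foxp3, was under the filter level on all arrays, as were Il2ra and Il10, and activated T cells carry the genes that rose too. The B cell list, which bears on Ccr6, had 4 of 8 tested higher in OVA/PM (Spib 1.94, Cr2 1.34, Cd22 1.24 and Ms4a1 1.12) and 3 of 8 in OVA/PBS, with 0 of 8 in PBS/PM. In OVA/PM, leaving out PBS/PBS replicate 2 or any OVA/PM array brought the B cell count to 2, and leaving out PBS/PBS replicate 2 brought the T cell count to 4.

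The OVA/PBS counts of these lists depended on single arrays, as did the count over all probe sets, which went from 4326 to 1291 and 636 without PBS/PBS replicates 1 and 2, and to 982 and 407 without OVA/PBS replicates 1 and 3. Without one or another of these 4 arrays, the calls in OVA/PBS numbered 2 or 3 in the dendritic cell list, 1 to 3 in the T cell list, 0 or 1 in the B cell and the type 2 lists, and 3 or 4 in the macrophage list. The regulatory T cell count fell to 2 without OVA/PBS replicate 3. Without OVA/PBS replicate 2, the count of the NF-kB and IL-17 list in OVA/PBS was 7 in place of 1. The share of all probe sets called in that refit is not given here, so nothing is read from this change.

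Of 11 macrophage genes tested in OVA/PM, 8 rose, with Retnla at 4.41, Ms4a7 at 4.02, Msr1 at 3.48 and Fcgr1 at 3.02, and Retnla was the 1 gene of the list that rose in PBS/PM (4.01). Of 5 mast cell genes tested, Hdc rose by 1.17 while Kit fell by 0.87 and Tpsb2, under the filter level in OVA/PM, at least 1.31-fold. In the airway epithelium list 5 of 11 rose in OVA/PM, among them Foxj1 by 0.84. Clca1, Muc5ac and Spdef, all under the filter level in PBS/PBS, rose at least 830-fold, 26.8-fold and 1.90-fold. Clca1, a gene of mucous cells, was also the 1 gene of this list that rose in PBS/PM (at least 656-fold, limma adjusted p = 6.57e-05) and in OVA/PBS (at least 10.8-fold, adjusted p = 0.000115). Of the innate lymphoid list, Il7r, Id2 (0.94) and Klrg1 (at least 1.78-fold) rose among 5 tested, and in PBS/PM 1 of 5 rose, Klrg1 (at least 2.59-fold). Of 10 lung markers 6 fell and 1 rose, and of 15 muscle genes tested 5 fell (median -2.88, or -2.86 with Myot and Mybpc1 at their bounds). Of all probe sets, 10.9% were called higher and 10.9% lower in OVA/PM, and 0.0719% in either direction in PBS/PM. These lists are descriptions: a gene low in PBS/PBS could enter only by being high in the other group. The part of any cell type, of the muscle genes or of the control probe sets of OVA/PM replicate 3 in the members' values was not tested. Without OVA/PM replicate 3, Ccl17 and Ccl22 kept their calls against PBS/PBS.

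**Figure D3:**
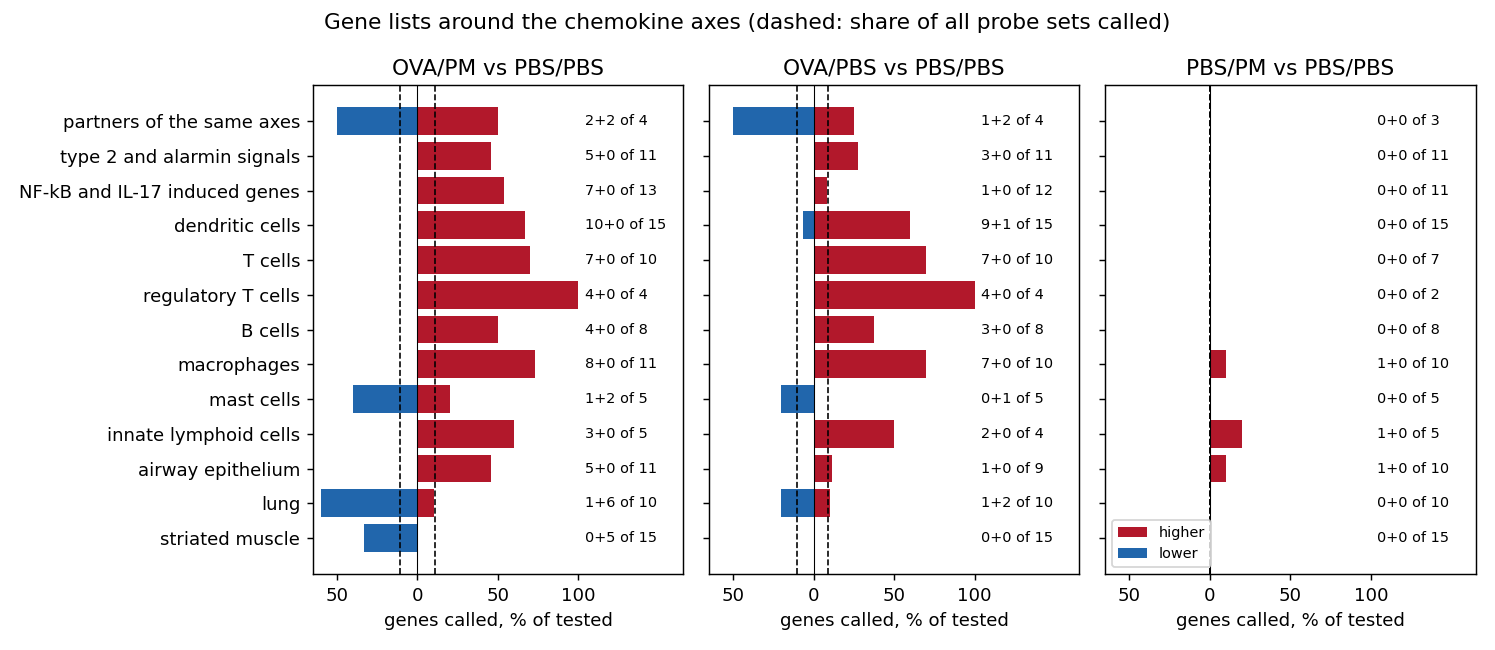
Share of tested genes of each list (vertical axis) called by limma at an adjusted p under 0.05 (horizontal axis, percent; red higher to the right, blue lower to the left), in the 3 contrasts with PBS/PBS, with counts written as higher plus lower of tested. Dashed lines mark the share of all probe sets called in each direction, 10.9% both ways in OVA/PM; 10 of 15 dendritic cell genes and 4 of 4 regulatory T cell genes are higher there, and few bars appear for PBS/PM.

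The 3 measurable members did not vary as 1 unit. Over the 12 arrays, Pearson's r was 0.67 between Ccl22 and Ccl17, 0.78 between Ccl22 and Ccr6 and 0.46 between Ccl17 and Ccr6. Of the deviations from the group means, it was -0.21, -0.01 and -0.50. These and the following correlations describe arrays that share groups, normalization and animals, and no test was made of them. In OVA/PBS, for example, replicate 2 was the highest of its group for Ccl22 and the lowest for Ccl17. Ccl17 reached the filter level on only 5 of the 12 arrays, so its correlations rest largely on values under that level. Its spread was widest in OVA/PBS (SD 0.95, against 0.19 to 0.32 in the other groups).

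For each measurable member, the 3 genes of highest r among 19671 candidates were taken. For Ccl22 these were Cpxm1 (a carboxypeptidase-like protein, 0.96), Mcm6 (a subunit of the replication helicase, 0.96) and Atp6v0d2 (a proton pump subunit of macrophages and osteoclasts, 0.96). Their r of the deviations from the group means, on the same arrays on which they were chosen, was 0.78, 0.64 and 0.67. Their differences from PBS/PBS were 1.97, 1.05 and 1.75 in OVA/PM, 1.85, 1.06 and 1.59 in OVA/PBS, and 0.18, 0.04 and 0.03 in PBS/PM.

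For Ccl17 they were F10 (coagulation factor X, 0.97), Il33 (0.96) and Ptger4 (a prostaglandin E2 receptor, 0.95). F10 and Ptger4 passed the filter only through OVA/PM, where F10 lay between 5.66 and 5.92 and Ptger4 between 4.96 and 5.20. Elsewhere F10 was under the filter level (at most 4.74), as was Ptger4 except in OVA/PBS replicate 1 (5.13). Much of their r thus comes from values under that level. Il33 was 10.86, 10.89 and 10.49 in PBS/PBS, 12.08, 11.24 and 11.91 in OVA/PBS, 11.13, 11.12 and 11.29 in PBS/PM and 12.31, 12.62 and 12.53 in OVA/PM. As for Ccl17, replicate 2 was the lowest of the OVA/PBS group, and the 3 OVA/PM arrays were the highest of the 12. For these 3 genes, which were chosen on the same arrays, r of the deviations from the group means was 0.92, 0.90 and 0.88. Ccl17 itself reached the filter level on 5 of the 12 arrays, which limits what each r can show.

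For Ccr6 they were Bcl11a (a transcription factor of B cells and plasmacytoid dendritic cells, 0.98), Slamf6 (a lymphocyte surface receptor, 0.95) and Fcer2a (the low-affinity IgE receptor of B cells, 0.95). Bcl11a was 2.98, 3.69 and 4.84 in PBS/PBS, 6.30, 6.22 and 4.52 in OVA/PBS, 4.77, 3.53 and 3.95 in PBS/PM and 6.48, 5.09 and 6.39 in OVA/PM. The arrays out of step with their group for Ccr6 were PBS/PBS replicate 3, OVA/PBS replicate 3 and OVA/PM replicate 2. They were out of step the same way for Bcl11a, and r of the deviations was 0.99 for it, 0.90 for Slamf6 and 0.84 for Fcer2a. These 3 genes were chosen on the same arrays, so such likeness follows in part from the choice. Bcl11a passed the filter only through OVA/PM, and it lay under that level in OVA/PBS replicate 3 and throughout PBS/PBS and PBS/PM. With the mean of the 9 B cell genes measured, Ccr6 had an r of 0.94, and 0.92 of the deviations. That mean ran from 6.65 to 7.72 in PBS/PBS, from 7.78 to 8.30 in OVA/PBS, from 7.20 to 7.85 in PBS/PM and from 7.94 to 8.48 in OVA/PM, with Pax5 under the filter level on all arrays. Its part in the Ccr6 values was not tested.

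**Figure D4:**
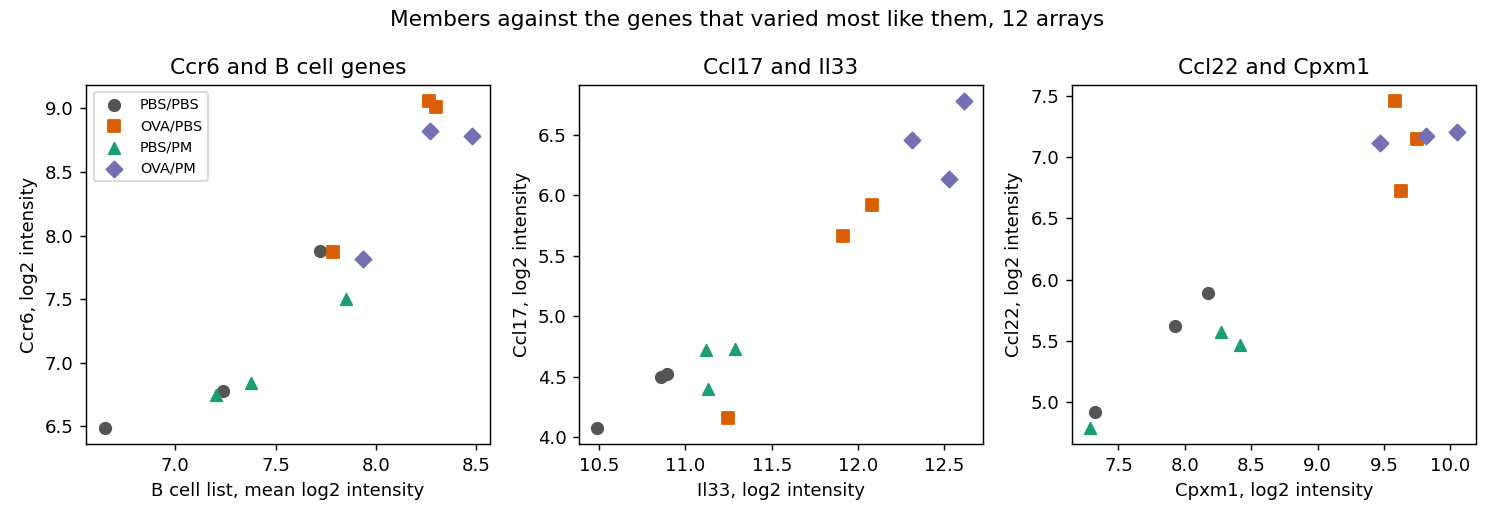
Log2 intensity of Ccr6, Ccl17 and Ccl22 (vertical axes) against the mean of the B cell list, Il33 and Cpxm1 (horizontal axes, log2 intensity), 1 point for each of the 12 arrays by group. Pearson's r is 0.94 for Ccr6 with the B cell mean, 0.96 for Ccl17 with Il33 and 0.96 for Ccl22 with Cpxm1, and the last pair separates the arrays labelled with OVA from the others.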

How the data were processed

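Total RNA of whole lung was measured on 12 arrays in 4 groups of 3. The authors deposited log2 intensities, computed over the arrays with GCRMA, which corrects background by probe composition and normalizes by quantiles, so values near the floor are compressed. The labels' notes also name MAS5. Versions are not given in the sources used here. With 3 arrays a group, their number limits the precision.

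Groups follow the sample titles. Symbols came from the platform annotation (34958 probe sets with 1 symbol, 932 with several, 9211 with none), matched by gene ID to a RefSeq table for 34754. Each pair of groups was fitted with limma 3.58.1 in R 4.3.3. The filter level of 4.93, the median of all values, had to be reached on every array of 1 or both groups, in place of the detection calls of the methods. The 64 control probe sets were left out. Benjamini-Hochberg adjustment ran over all probe sets kept (22538 for OVA/PM against PBS/PBS), and an adjusted p under 0.05 was a call. The interaction used all 12 arrays. Folds are powers of 2 of differences of mean log2 values, or, where a group lay under the filter level on all its arrays, distances from that level. The script was tested on simulated data.

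List genes were represented by the probe set of highest mean. Named were all members, the 3 genes most correlated with each measurable member, 3 partner genes and up to 4 called genes of each list by size of change. Ager, Sftpc and list genes named as low were added after their values were seen. Members, lists and tests were chosen with earlier results of these data known. Results were recomputed without a filter, with a higher one (8.65, the 75th percentile), after adding 16 to linear values, after quantile normalization, with replicate numbers as blocks, in 1 fit of the 4 groups, by SAM with 20 relabelings, and without each array.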

Additional observations from a re-analysis of the deposited data

How the results depend on the processing

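The count of members called depended on the filter and on single arrays. With the filter at the 75th percentile no member was tested in OVA/PM, OVA/PBS or their contrasts with PBS/PM, so the count was 0 in each. For OVA/PBS against PBS/PBS it was 0 with no filter (Ccl22 adjusted p = 0.0543 by limma), where 5.4% of all probe sets were called. It was 2 with 1 fit of the 4 groups (25.2% of all probe sets), 2 with SAM (49.1%), and between 0 and 2 when arrays were left out in turn. For OVA/PBS against PBS/PM it was 0 with no filter, where 0.00888% of all probe sets were called, so that 0 is near the share. It was 2 with the 4-group fit (14.7% of all probe sets), 2 with SAM (25.4%), and again between 0 and 2 when arrays were left out. For OVA/PM, the count ranged from 2 to 3 against PBS/PBS and from 2 to 3 against PBS/PM when arrays were left out. For PBS/PM against PBS/PBS, OVA/PM against OVA/PBS and the interaction it was 0 under each alternative run. The offset and the further quantile normalization moved no count of members by more than 1.5 times. That bound would not show a count that moved from 2 to 3 or from 3 to 2.

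Replicate numbers did not pair the arrays: of 18 same-numbered pairs 3 had deviations correlated over 0.1 (median -0.06). With the replicate block, the count for OVA/PBS against PBS/PM was 0 (Ccl22 adjusted p = 0.0581 by limma), and Ccr6 was called in OVA/PM against PBS/PBS (adjusted p = 0.0444). Ackr2 in both groups labelled with OVA (0.102 and 0.0783) and Ccl8 in OVA/PBS (0.0534) were then no longer called against PBS/PBS. No member or partner gene that was called changed sign under an alternative that kept all arrays. Of the list counts, no filter lowered the B cell count in OVA/PM to 2, and in OVA/PBS the dendritic, T cell, B cell and macrophage counts to 5, 3, 0 and 4. The share of all probe sets called fell too, from 21.7% to 8.5% in OVA/PM and from 19.2% to 5.4% in OVA/PBS.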
